A study of Mus musculus with 123 samples.

Results

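The constitutive proteasome genes are those whose platform annotation symbol begins with Psma, Psmb, Psmc, Psmd, Psme or Psmg and a digit, without the immunoproteasome subunits Psmb8, Psmb9 and Psmb10. The rule took 35 of the 13053 genes that had a probe set of their own, and it used symbols only, no measured value. The genes were, however, chosen with earlier results of these data known. Each gene was read through its probe set with the highest mean. Expression was measured on Affymetrix arrays in whole lungs of 61 naive and 62 sensitized BALB/c mice, 1 array per mouse, in a model of allergic asthma driven by the egg protein ovalbumin (OVA). The 62 OVA-sensitized mice were killed at 0, 2, 6, 24, 48, 72, 96 and 168 h, in groups of 8 except at 24 h, where there were 6. The 61 naive mice were killed at the same times in groups of 8, with 7 at 2, 48 and 96 h. The design describes an OVA challenge in both arms, yet naive sample titles carry the word PBS, so what naive mice received is not settled by the labels. The labels do not say whether 0 h was before or just after the challenge, nor the age or sex of the mice. The comparison at each time asks how the sensitized lung differed from the naive lung.

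The proteasome is the barrel-shaped protease that degrades ubiquitin-tagged proteins in the cytoplasm and nucleus. Rings of alpha subunits gate the barrel and rings of beta subunits hold its active sites, a regulatory particle with an ATPase base and a lid recognises, unfolds and feeds in substrates, and dedicated chaperones put the rings together. In cells exposed to interferon gamma the active beta subunits Psmb5, Psmb6 and Psmb7 are replaced in new particles by Psmb8, Psmb9 and Psmb10, which favour peptides for major histocompatibility complex (MHC) class I. The 35 genes comprise 6 of the alpha ring, 6 of the beta ring, the 6 base ATPases, 2 other base subunits, 6 lid subunits, 6 assembly chaperones, 2 activators and Psmc3ip. Psmc3ip, named for binding an ATPase subunit, is a cofactor of meiotic recombination and no part of the proteasome, and is kept because the symbol rule takes it. Psma2, Psma8, Psmb3, Psmb11, Psmd2, Psmd12, Psmd14, Psme1 and Psme2 were not analysed here.

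Promoter sequences give the genes' regulatory context. The RefSeq promoter table, on build GRCm38.p6, held 28 of the 35 genes, and the 250 bases before the start are printed below for 5 of them, 5′ to 3′ on the gene's strand. Psma5 and Psmg1 are shown because they had the largest differences between the arms at 6 h, Psmb5 and Psmb6 because they encode active subunits and hold the core of the antioxidant response element, and Psme3 because its difference moved most from 0 h to 6 h after that of Psmd7, Psmg1 and Psmg4. The window of Psma5 is chr3:108256676-108256925 on the plus strand, that of Psmg1 chr16:95990961-95991210 on the minus strand and that of Psme3 chr11:101315963-101316212 on the plus strand. The window of Psmb5 is chr14:54617996-54618245 on the minus strand and that of Psmb6 chr11:70525107-70525356 on the plus strand. Capitals mark TGACNNNGC, the antioxidant response element core recognised by the factors NFE2L1 and NFE2L2, and CCAAT, the box bound by NFY, on either strand, so CCAAT on the other strand reads ATTGG.
Psma5: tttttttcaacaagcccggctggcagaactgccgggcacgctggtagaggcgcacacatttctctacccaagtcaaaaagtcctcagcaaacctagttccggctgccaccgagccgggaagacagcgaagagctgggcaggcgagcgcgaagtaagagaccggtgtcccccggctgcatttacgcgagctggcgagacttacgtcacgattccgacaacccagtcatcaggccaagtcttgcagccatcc
Psmg1: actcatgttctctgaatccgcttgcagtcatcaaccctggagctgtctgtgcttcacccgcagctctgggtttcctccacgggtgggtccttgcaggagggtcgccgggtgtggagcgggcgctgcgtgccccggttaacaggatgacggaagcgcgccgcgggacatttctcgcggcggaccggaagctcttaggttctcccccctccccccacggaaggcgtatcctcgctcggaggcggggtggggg
Psmb5: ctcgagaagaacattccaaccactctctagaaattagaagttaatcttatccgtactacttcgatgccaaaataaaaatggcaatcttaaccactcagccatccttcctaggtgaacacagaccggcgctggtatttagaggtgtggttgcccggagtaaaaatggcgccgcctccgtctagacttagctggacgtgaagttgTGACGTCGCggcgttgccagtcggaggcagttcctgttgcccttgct
Psmb6: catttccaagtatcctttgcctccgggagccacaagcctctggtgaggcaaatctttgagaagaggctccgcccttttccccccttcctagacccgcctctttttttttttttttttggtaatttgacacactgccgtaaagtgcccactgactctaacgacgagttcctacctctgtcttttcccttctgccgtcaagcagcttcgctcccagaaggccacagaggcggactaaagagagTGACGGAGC
Psme3: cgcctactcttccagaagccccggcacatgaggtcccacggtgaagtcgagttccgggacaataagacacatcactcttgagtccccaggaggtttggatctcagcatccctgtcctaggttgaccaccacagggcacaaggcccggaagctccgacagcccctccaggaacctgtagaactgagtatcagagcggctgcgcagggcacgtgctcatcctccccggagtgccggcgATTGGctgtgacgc

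TGACNNNGC was present in the window of 4 of 28 genes (14.3%), Psmb5, Psmb6, Psmc6 and Psmd9, against 10.2% of 32851 promoter windows of the same length. Counted from the gene's start, it begins at position -47 in Psmb5 and at position -9 in Psmb6. CCAAT was present for 9 of 28 genes (32.1%), Psma1, Psma3, Psma6, Psma7, Psmc1, Psmc2, Psmc3ip, Psmd4 and Psme3, against 33.8% of all windows. Among the immunoproteasome genes, Psmb9 held CCAAT and none of the 3 held TGACNNNGC. A gene was counted once if any of its windows held the motif, while the shares of all promoters are per window. The 28 genes had 30 windows. These matches describe letters in the windows only, and both shares lay near those of all promoters.

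Some mice stood apart before any comparison. A set of 10 arrays had a mean of squamous epithelium or skeletal muscle markers of at least 8 on the log2 scale, which are tissues outside the lung: naive 0 h replicates 1 and 3, naive 2 h replicate 2, sensitized 2 h replicate 6, naive 6 h replicates 1 and 8, sensitized 6 h replicates 3 and 7, naive 24 h replicate 8 and sensitized 48 h replicate 8. Markers of lung itself were present, with alveolar type I markers averaging 13.06 to 13.29 in naive mice at 6 h. Sensitized 6 h replicate 3 lay among the naive mice in proteasome signal: 3 of the 35 genes exceeded every naive mouse there, against 16 in replicate 2 and 26 to 32 in the other 6 mice. The SD of the 35-gene mean at 6 h was 0.027 in naive and 0.099 in sensitized mice, so an SE from a fit that shares 1 spread over all groups can understate that of the sensitized mice.

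In whole lung, the mean log2 signal of an array's 35 genes stood apart most between the arms at 6 h and 24 h, with sensitized mice higher. At 6 h it ran from 11.46 to 11.54 (median 11.50) in the 8 naive mice and from 11.51 to 11.79 (median 11.72) in the 8 sensitized mice, of which 7 lay above every naive mouse. At 24 h it ran from 11.47 to 11.56 in naive and from 11.59 to 11.71 in sensitized mice, and all 6 sensitized mice lay above every naive mouse. The sensitized mice above every naive mouse numbered 7 of 8 at 0 h, 4 of 8 at 2 h, 1 of 8 at 48 h, 4 of 8 at 72 h, 3 of 8 at 96 h and 0 of 8 at 168 h. The difference of group means was 0.19 at 6 h and 0.12 at 24 h, where 1 is a doubling of signal. In these whole-lung samples, more cells rich in proteasome RNA and more such RNA per cell cannot be told apart.

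**Figure D1:**
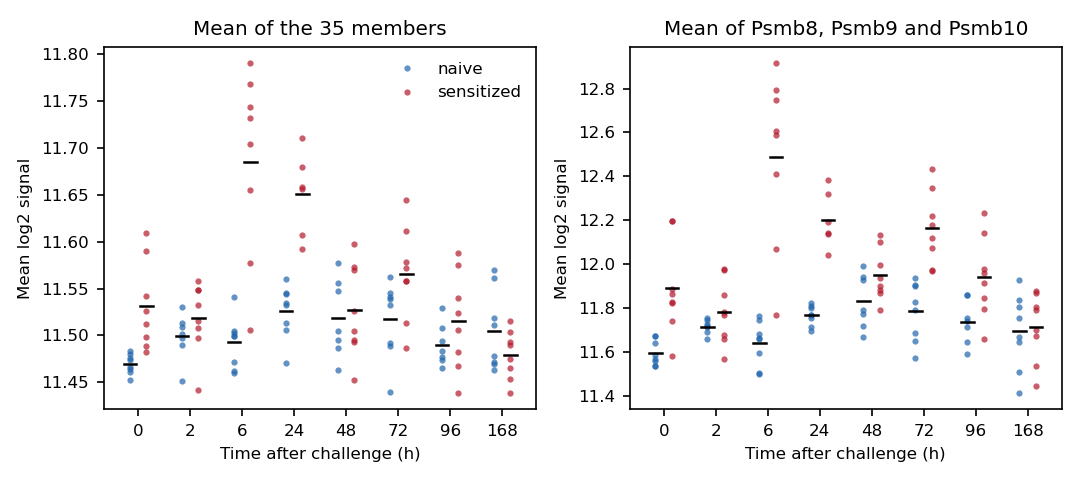
Mean log2 signal of the 35 constitutive proteasome genes (left) and of Psmb8, Psmb9 and Psmb10 (right) in each mouse, with times in hours as equally spaced categories and black bars for group means. At 6 h, 7 of 8 sensitized mice lie above every naive mouse in the left panel, and at 168 h none does.

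Gene by gene, the arms were compared at each time with limma, as sensitized minus naive, over all 13053 genes, and a gene was counted as higher or lower at a Benjamini-Hochberg adjusted p under 0.05. At 6 h, 28 of the 35 genes were higher and 1 lower, while over all genes 24.6% were higher and 33.2% lower. The median difference was 0.16 among the 35 and -0.04 among all genes. By mean signal of their probe sets 29 of the 35 lay above the median of all genes, and of the 6526 genes above that median 23.7% were higher at 6 h. At 24 h, 22 genes were higher and 1 lower, with 22.8% of all genes higher and 24.9% lower, and the medians were 0.12 and -0.02. Of those 6526 genes, 21.7% were higher at 24 h. Of the genes higher at 6 h, 20 were higher at 24 h too, and 25 of the 35 differences were larger at 6 h than at 24 h. The shares of all genes for these counts were not determined, so the counts cannot be read as particular to the 35.

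Outside these times fewer of the genes differed. At 0 h, 9 were higher and 1 lower (14.2% and 12.3% of all genes), with a median of 0.04. At 2 h none was higher and 1 lower by limma (1.84% and 1.92%); at an unadjusted p under 0.05 the counts were 2 and 3. At 48 h, 4 were higher and 3 lower (17% and 18.1%), and with each array centred on its median 0 were higher and 11 lower. At 72 h, 11 were higher and 2 lower (22.2% and 26.3%), against 3 and 3 after that centring, and at 96 h 6 were higher and 5 lower (21.2% and 20.8%), against 5 and 9. At 168 h no gene passed in either direction by limma (3.4% and 1.41%), and at an unadjusted p under 0.05 1 was higher and 4 lower. Shares of the 35 genes at 48 h and 96 h were below those of all genes, and the split between directions changed with the centring. Higher genes at 72 h numbered 6 without naive replicate 5 and 7 without sensitized replicate 6 or 7. At 48 h they numbered 1 without naive replicate 6 or 7 or sensitized replicate 1 and 2 without naive replicate 5 or sensitized replicate 3 or 6. Lower genes at that time numbered 1 when replicate 1 of either arm was omitted, and 5 when sensitized replicate 8 was. Among the 0 h genes, Psma5, Psmb2 and Psmd3 lost their calls on omitting sensitized replicate 1, which gave 6 higher, and the lower gene, Psmd11, lost its call on omitting any 1 of 10 of the 16 mice.

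**Figure D2:**
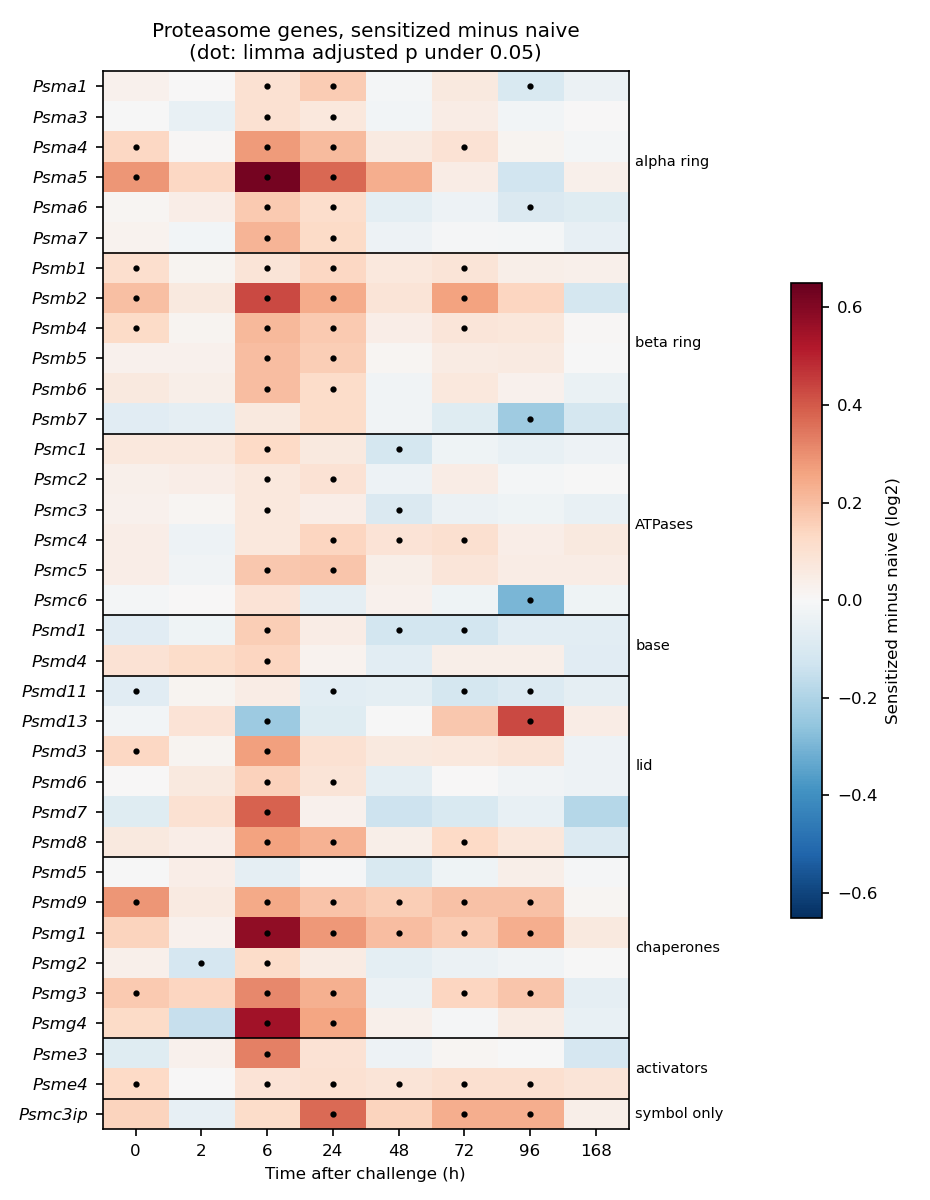
Sensitized minus naive difference (log2, colour) of the 35 genes in rows by role and the 8 times in columns, with a dot where limma's adjusted p was under 0.05. Red columns at 6 h and 24 h hold 28 and 22 higher genes, and the 168 h column holds no dot.

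The alpha ring was higher at both times: all 6 of its measured genes were higher at 6 h, by 0.10 to 0.62, and all 6 at 24 h, by 0.07 to 0.37. Psma5, an alpha subunit with the largest difference among the 35, ran at 6 h from 8.13 to 8.35 (median 8.21) in naive and from 8.31 to 9.21 (median 8.92) in sensitized mice. In 6 of 8 sensitized mice it lay above every naive mouse, a difference of 0.62 ± 0.10 (SE) or 1.54-fold, adjusted p 4.06e-08 by limma. At 24 h Psma5 ran from 7.76 to 8.40 (median 8.15) in naive and from 8.17 to 8.82 (median 8.49) in sensitized mice, with 4 of 6 above every naive mouse and a difference of 0.37 ± 0.11 (adjusted p 0.00211). The Psma5 probe set has a low mean signal, at the 23.5th percentile of all genes. Psma4 ran at 6 h from 11.82 to 11.97 (median 11.86) in naive and 11.87 to 12.36 (median 12.20) in sensitized mice, a difference of 0.28 ± 0.04 (adjusted p 7.57e-09) with 6 of 8 sensitized mice above every naive one. For Psma7 the 6 h ranges were 12.56 to 12.73 (median 12.67) and 12.66 to 13.02 (median 12.88), the difference 0.22 ± 0.04 (adjusted p 2.11e-07), and 7 of 8 sensitized mice stood above the naive range. In each of these 3 genes 1 or 2 sensitized mice fell within the naive range. The other members, Psma6 (0.17), Psma1 (0.10) and Psma3 (0.10), were smaller in difference at 6 h, and that of Psma1 turned to -0.0021 when its 4 probe sets were averaged. At 24 h the Psma1 difference was 0.16 ± 0.04, adjusted p 2.48e-04. The 24 h call of Psma3 was lost without naive replicate 6 or sensitized replicate 2. At 96 h Psma1 and Psma6 were lower in sensitized mice by limma, with differences of -0.10 and -0.09.

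In the beta ring 5 of 6 genes were higher at 6 h and 5 at 24 h, Psmb7 being the exception at both times. Psmb2, a non-catalytic beta subunit, ran at 6 h from 11.07 to 11.30 (median 11.16) in naive and from 11.25 to 11.83 (median 11.67) in sensitized mice, with 7 of 8 above every naive mouse. The difference was 0.43 ± 0.06, 1.34-fold, with adjusted p 2.29e-09, and it was 0.24 ± 0.07 at 24 h (adjusted p 0.00132) and 0.26 ± 0.06 at 72 h (adjusted p 1.99e-04). Psmb4, also non-catalytic, separated the arms fully: at 6 h naive mice ran from 12.94 to 13.13 (median 13.07) and sensitized mice from 13.13 to 13.37 (median 13.30), and the highest naive mouse (13.130) lay just below the lowest sensitized one (13.134). Its difference was 0.21 ± 0.03 at 6 h (adjusted p 6.49e-09) and 0.17 ± 0.03 at 24 h (adjusted p 1.51e-05), when the arms did not overlap either. Of all 35 genes only Psmb4 and Psmg2 had no overlap with sensitized mice higher at 6 h (1.5% of all genes), and 10 had none at 24 h (13% of all genes), where only 6 sensitized mice were compared.

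The 3 catalytic subunits of the constitutive particle did not share a call. Psmb5, which cuts after hydrophobic residues, ran at 6 h from 12.74 to 12.91 (median 12.81) in naive and 12.82 to 13.18 (median 13.04) in sensitized mice, a difference of 0.20 ± 0.03 (adjusted p 1.03e-07). 6 of its 8 sensitized mice lay above the naive range, and all 6 did at 24 h, when the difference was 0.16 ± 0.04 (adjusted p 8.63e-05). Psmb6, which cuts after acidic residues, differed by 0.20 ± 0.03 at 6 h (adjusted p 2.50e-08) and 0.12 ± 0.03 at 24 h (adjusted p 0.00146). Psmb7, which cuts after basic residues, ran at 6 h from 12.09 to 12.20 (median 12.19) and 12.07 to 12.34 (median 12.23), a difference of 0.06 ± 0.06 that missed the threshold (adjusted p 0.365), although 6 of 8 sensitized mice lay above every naive mouse. Without sensitized 24 h replicate 1, which stood far below its group, Psmb7 passed as higher at 24 h. At 96 h Psmb7 was lower in sensitized mice by limma, with a difference of -0.23 ± 0.06 (adjusted p 0.00139). Whether the difference of Psmb7 was smaller than those of Psmb5 and Psmb6 was not tested.

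The 3 inducible replacements were all higher at 6 h and 24 h. Whether their differences exceeded those of the constitutive subunits was not tested, and the values are given side by side. At 6 h the mean of Psmb8, Psmb9 and Psmb10 ran from 11.50 to 11.77 in naive and from 11.77 to 12.91 in sensitized mice, and the differences were 0.89 ± 0.09 for Psmb8, 0.98 ± 0.10 for Psmb9 and 0.67 ± 0.06 for Psmb10, with limma's adjusted p at 3.83e-14, 5.25e-15 and 1.68e-15. At 24 h these were 0.56 ± 0.10, 0.49 ± 0.10 and 0.25 ± 0.07. All 3 were higher at 0, 6, 24 and 72 h, and 7 of the 35 constitutive genes were higher at those same 4 times (7.67% of all genes were): Psma4, Psmb1, Psmb2, Psmb4, Psmd9, Psme4 and Psmg3. These numbered 2 with each array centred on its median (Psmb2 and Psmd9) and 3 with the mean over probe sets (Psma4, Psmb1 and Psmb2). Their 72 h calls were lost without any 1 of 11 of the 16 mice for Psma4 and of 5 for Psmb4, and without naive 72 h replicate 5 for Psmg3. Of 8 measured class I presentation genes, 7 were higher at 6 h, against 24.6% of all genes. Among them were the peptide transporter Tap1 at 1.55 and the class I transactivator Nlrc5 at 1.39.

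**Figure D3:**
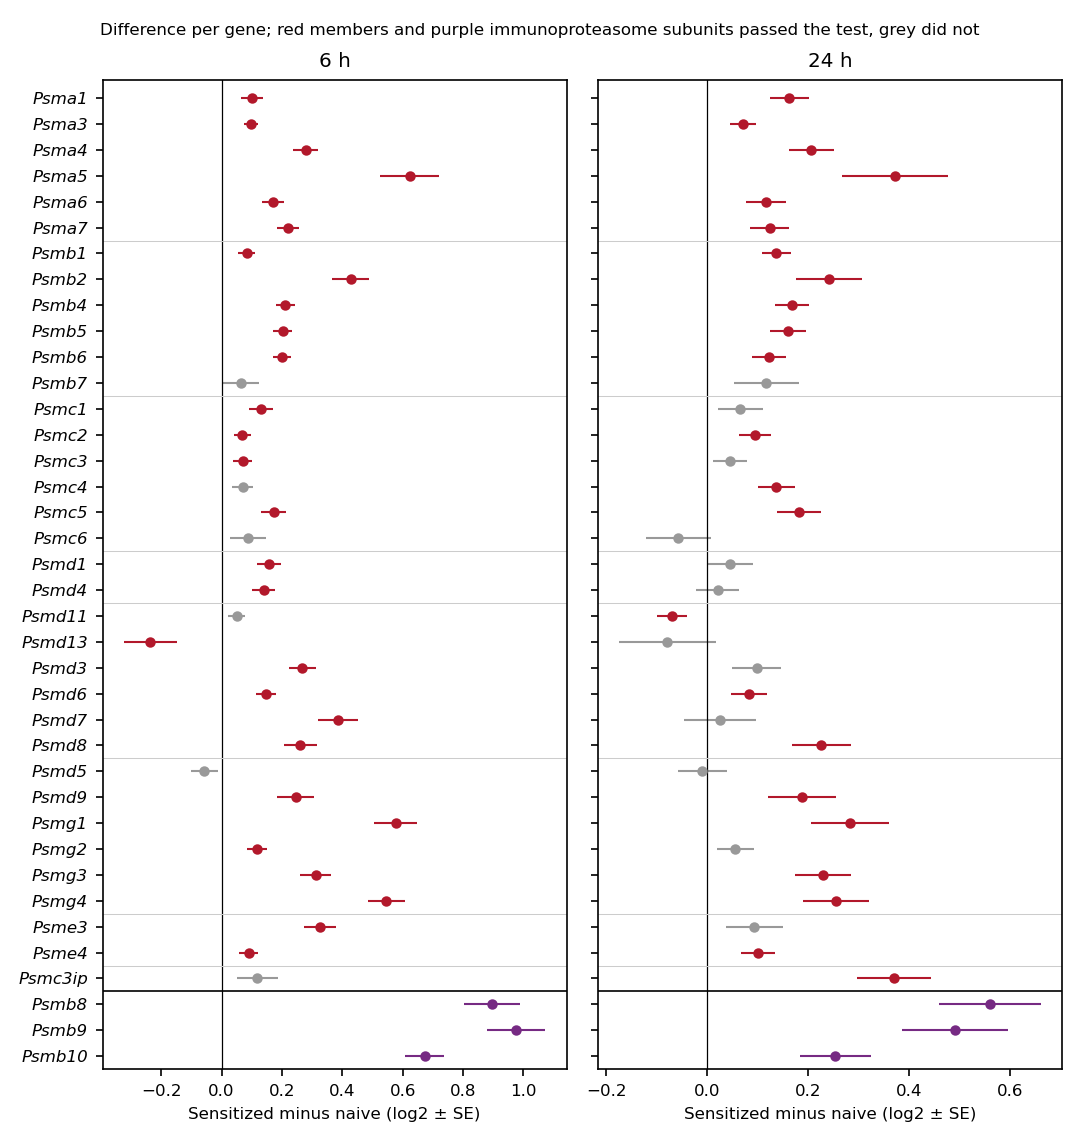
Sensitized minus naive difference (log2, point) with its SE (bar) for each of the 35 genes in order of role, with the 3 immunoproteasome subunits under the black line, at 6 h and at 24 h on separate scales. Points passing limma's threshold are red or purple and the others grey; Psma5 lies at 0.62 and Psmd13 at -0.24 at 6 h.

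The ATPases form the base ring that unfolds substrates, and their differences were small in the probe sets used. At 6 h 4 of 6 were higher, with a median of 0.08 and a range of 0.07 to 0.17, and 3 of 6 at 24 h. Psmc5 had the largest, running at 6 h from 11.62 to 11.76 (median 11.67) in naive and 11.61 to 12.01 (median 11.87) in sensitized mice, with 6 of 8 above the naive range. It differed by 0.17 ± 0.04 at 6 h (adjusted p 1.59e-04) and by 0.18 ± 0.04 at 24 h (adjusted p 3.27e-04), when the arms did not overlap. Psmc1 ran from 12.86 to 13.11 (median 12.99) and 13.00 to 13.26 (median 13.12) at 6 h, a difference of 0.13 ± 0.04 (adjusted p 0.00422), and 3 of its sensitized mice fell within the naive range. It was lower in sensitized mice at 48 h, by limma at -0.11 ± 0.04 (adjusted p 0.0281), as was Psmc3 at -0.09 ± 0.03 (adjusted p 0.0195). The 48 h call was lost for Psmc1 without naive replicate 1 or 2 or sensitized replicate 4 or 5, for Psmc3 without replicate 1 of either arm, and for both when only the 48 h groups entered the fit (adjusted p 0.143 and 0.136 by limma). Psmc4 missed the threshold at 6 h (0.07 ± 0.03, adjusted p 0.0658), with ranges of 12.58 to 12.76 (median 12.69) and 12.55 to 12.86 (median 12.77), and passed it at 24 h (0.14 ± 0.04, adjusted p 9.46e-04). Without sensitized 6 h replicate 3, whose Psmc4 signal of 12.55 was the lowest of either arm, its 6 h difference was 0.099 and passed, and it passed too without naive 6 h replicate 6. The 6 h calls of Psmc2 (0.07) and Psmc3 (0.07) were lost without any 1 of 5 and of 10 of the 16 mice. The size also depended on the probe set. Other probe sets of Psmc4 and Psmc2, of mean signal 12.09 and 12.11, gave larger 6 h differences of 0.22 and 0.16. The other probe set of Psmc6, of mean signal 8.1, gave 0.08. Psmc6 passed at neither time: its 6 h ranges were 10.22 to 10.57 (median 10.45) and 10.34 to 10.75 (median 10.53) and its difference 0.09 ± 0.06 (adjusted p 0.2). At 96 h Psmc6 was lower, from 10.10 to 10.46 (median 10.36) in sensitized against 10.57 to 10.73 (median 10.64) in naive mice, with no overlap (5.06% of all genes had none in that direction) and a difference of -0.30 ± 0.06 (adjusted p 3.78e-05).

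Both measured base subunits without ATPase activity were higher at 6 h and neither at 24 h. Psmd1, a scaffold of the base, ran from 12.15 to 12.41 (median 12.28) in naive and 12.30 to 12.57 (median 12.45) in sensitized mice at 6 h, a difference of 0.16 ± 0.04 (adjusted p 5.50e-04). Psmd4, a receptor for ubiquitin chains, ran from 12.21 to 12.39 (median 12.33) and 12.32 to 12.58 (median 12.48), a difference of 0.14 ± 0.04 (adjusted p 0.00155). In each, some sensitized mice lay within the naive range, with 5 of 8 above it for Psmd1 and 6 of 8 for Psmd4. By 24 h the differences were 0.05 ± 0.04 and 0.02 ± 0.04, with adjusted p 0.401 and 0.711, and Psmd1 was lower in sensitized mice at 48 h (-0.12 ± 0.04, adjusted p 0.0198) and at 72 h (-0.12 ± 0.04, adjusted p 0.00963). The 48 h call of Psmd1 was lost without sensitized 48 h replicate 1 and when only the 48 h groups entered the fit.

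The lid, which carries the deubiquitinating activity, was the role group with calls in both directions at 6 h: 4 of 6 higher and 1 lower. Psmd7, the partner of the lid's deubiquitinase, ran from 9.72 to 9.98 (median 9.83) in naive and from 9.86 to 10.56 (median 10.32) in sensitized mice, with 6 of 8 above every naive mouse. Its difference was 0.39 ± 0.07 at 6 h (adjusted p 3.13e-07) and 0.03 ± 0.07 at 24 h (adjusted p 0.79), when no sensitized mouse lay above the naive range. Psmd3 ran at 6 h from 10.54 to 10.71 (median 10.65) and 10.69 to 11.04 (median 10.95), a difference of 0.27 ± 0.05 (adjusted p 2.87e-07) with 7 of 8 above the naive range. Psmd8 differed at both times, by 0.26 ± 0.05 at 6 h (adjusted p 2.04e-05) and 0.23 ± 0.06 at 24 h (adjusted p 7.84e-04), and at 24 h its arms did not overlap. Psmd6 was higher by 0.15 at 6 h and 0.08 at 24 h, the latter call being lost without any 1 of 9 of the 14 mice.

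Psmd13 went the other way. Its 6 h signal ran from 6.55 to 6.98 (median 6.79) in naive and from 6.28 to 7.05 (median 6.47) in sensitized mice, where 1 of 8 lay above every naive mouse, and the difference was -0.24 ± 0.09 (adjusted p 0.0176). At 96 h it was higher instead, from 6.87 to 7.31 (median 7.02) in sensitized against 6.42 to 6.98 (median 6.47) in naive mice, a difference of 0.43 ± 0.09 (adjusted p 7.09e-05). Its only probe set sits at the 4.18th percentile of mean signal, the lowest of the 35 genes, and the 6 h call was lost without sensitized 6 h replicate 5 and when only the 6 h groups entered the fit. Psmd11 did not pass at 6 h (0.05 ± 0.03, adjusted p 0.11), though 6 of 8 sensitized mice lay above the naive range of 12.53 to 12.59 (median 12.57). It was lower at 0, 24, 72 and 96 h, by -0.07 ± 0.03 at 24 h (adjusted p 0.042), a call lost without any 1 of 8 of the 14 mice. All 4 of those differences turned positive when its 5 probe sets were averaged, and another probe set of mean signal 10.23 gave 0.38 at 6 h and 0.27 at 24 h.

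Assembly chaperones held 2 of the 3 largest differences. Psmg1 and Psmg2 pair to build the alpha ring, and Psmg3 and Psmg4 form another pair that acts in the same step. Psmg1 ran at 6 h from 9.88 to 10.28 (median 10.03) in naive and from 9.96 to 11.01 (median 10.74) in sensitized mice, and 6 of 8 lay above every naive mouse. The difference was 0.58 ± 0.07 at 6 h, 1.49-fold (adjusted p 3.23e-11), and 0.28 ± 0.08 at 24 h (adjusted p 0.0015), and Psmg1 was higher at 48, 72 and 96 h. The 48 h call of Psmg1 was lost without naive replicate 1, 4 or 5 and its 72 h call without any 1 of 13 of the 16 mice. Psmg4 ran from 8.87 to 9.24 (median 9.09) and 9.13 to 9.96 (median 9.74), a difference of 0.55 ± 0.06 or 1.46-fold (adjusted p 6.42e-13), with 6 of 8 above the naive range. Psmg3 ran from 10.76 to 10.92 (median 10.82) and 10.89 to 11.29 (median 11.19), a difference of 0.31 ± 0.05 (adjusted p 1.63e-07), and 7 of 8 sensitized mice exceeded every naive one. Psmg2 had the smallest difference of the 4, 0.12 ± 0.03 (adjusted p 0.00181), and yet no overlap between the arms at 6 h. For Psmg1 and Psmg4 the difference was smaller at 24 h, at 0.28 and 0.26.

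The chaperones of the ATPase ring differed from each other. Psmd9 was higher at 0, 6, 24, 48, 72 and 96 h, by 0.29 ± 0.06 at 0 h (adjusted p 2.63e-04) and 0.25 ± 0.06 at 6 h (adjusted p 3.76e-04). At 24 h and 48 h its sign depended on the probe set, since the mean over its 3 probe sets gave -0.056 and -0.034 in place of 0.19 and 0.16. Its 24 h call was lost without naive replicate 5 or sensitized replicate 2, and its 48 h call without any 1 of 8 of the 15 mice. Psmd5 was the only one of the 35 genes called at no time, with 6 h ranges of 10.96 to 11.40 (median 11.16) in naive and 11.02 to 11.20 (median 11.10) in sensitized mice and a difference of -0.06 ± 0.05 (adjusted p 0.276).

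Both activators measured were higher at 6 h. Psme3, a nuclear ring that opens the barrel without ATP, ran from 11.20 to 11.32 (median 11.26) in naive and from 11.26 to 11.75 (median 11.69) in sensitized mice, a difference of 0.33 ± 0.05 (adjusted p 8.22e-08). In 6 of 8 sensitized mice it lay above the naive range, while at 24 h the difference was 0.09 ± 0.06 (adjusted p 0.169). Psme4, a nuclear activator linked to histone degradation, differed by 0.09 ± 0.03 at 6 h (adjusted p 0.00981), by 0.13 at 0 h and by 0.10 at 24 h. It passed as higher at every time but 2 h and 168 h, but the 48 h call was lost without any 1 of 7 of the 15 mice and the 24 h call without sensitized 24 h replicate 5. With centred arrays its 24, 48, 72 and 96 h calls were lost. Its differences at 24, 72 and 96 h turned to -0.0305, -0.047 and -0.091 when its 6 probe sets were averaged. Psmc3ip, the gene that is no proteasome subunit, did not pass at 6 h (0.12 ± 0.07, adjusted p 0.123) and differed by 0.37 ± 0.07 at 24 h (adjusted p 1.33e-05), with no overlap.

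**Figure D4:**
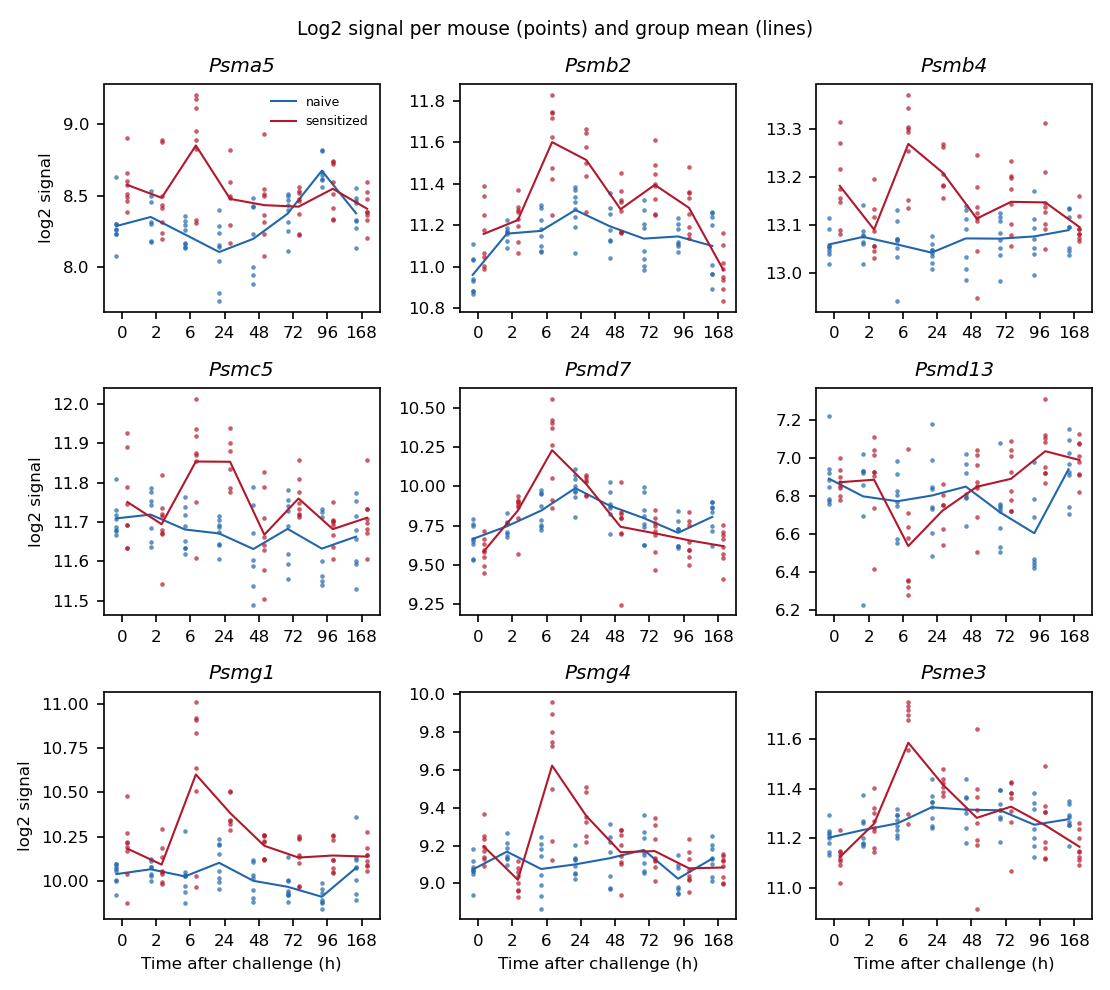
Log2 signal of 9 proteasome genes in every mouse (points) with group means (lines), naive in blue and sensitized in red, over times in hours as equally spaced categories and with a separate vertical scale for each gene. Psma5, Psmb2, Psmd7, Psmg1, Psmg4 and Psme3 have their highest sensitized mean at 6 h, and Psmd13 its lowest.

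Because the arms already differed for 10 of the genes at 0 h, the change of the sensitized minus naive difference since 0 h was tested too. At 6 h it passed for 14 of 35 genes, all of them upward, where 24.6% of all genes passed and 10% passed upward. The largest was that of Psmd7, at 0.47 ± 0.09 (adjusted p 9.10e-05 by limma), followed by Psmg1 at 0.43 ± 0.10 (7.97e-04), Psmg4 at 0.42 ± 0.09 (1.33e-04) and Psme3 at 0.41 ± 0.07 (2.59e-05). In Psmd7 the naive means were 9.66 at 0 h and 9.85 at 6 h, and the sensitized means 9.58 and 10.23. In Psmg1 the naive means were 10.04 and 10.02 and the sensitized means 10.18 and 10.60. Psma5, with the largest difference at 6 h, was not among the 14, its change being 0.34 ± 0.14 (adjusted p 0.0619) from an initial difference of 0.29. Psmb2 (0.23 ± 0.09) and Psmd1 (0.23 ± 0.06) passed, as did Psma3, Psma6, Psma7, Psmb5, Psmb6, Psmd6, Psmd8 and Psmd11.

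At 24 h no change since 0 h passed for the 35 genes by limma (5.49% of all genes passed), with 8 upward and 0 downward at an unadjusted p under 0.05, and 11 genes passed when limma's array weights were used. At 48 h and 72 h none passed either (0% and 2.54% of all genes). The unadjusted counts there were 0 upward and 5 downward at 48 h and 0 in both directions at 72 h, and array weights gave 4 and 0. Psmg4 was the only gene to pass at 2 h (6.69% of all genes), downward at -0.27 ± 0.09 (adjusted p 0.0432). With each array centred on its median no gene passed there (Psmg4 -0.24, adjusted p 0.0606 by limma), and with array weights 7 did. At 96 h Psmc6 (-0.29 ± 0.08) and Psmd13 (0.45 ± 0.13) passed (3.12% of all genes), and at 168 h Psmb2 (-0.31 ± 0.09; 1.94% of all genes). These changes all share the 0 h groups.

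Moderated F tests asked whether each gene varied over the 8 times. In sensitized mice all 35 genes passed (87.8% of all genes did), in naive mice 20 (38.4%), and 29 passed for a time course that differed between the arms (62.5%). The share in sensitized mice was near that of all genes. For the difference between arms the 6 that did not pass were Psmb1, Psmc2, Psmc4, Psmd5, Psmd9 and Psme4, of which Psmb1, Psmd9 and Psme4 were already higher at 0 h. Psmg4 had the lowest adjusted p of the 35 in that test, 1.59e-09 by limma.

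Genes that act around the proteasome but fall outside the symbol rule did not move as a block. At 6 h 24.6% of all genes were higher and 33.2% lower, and whether the lists below differed from that was not tested. Of 11 measured partners 1 was higher and 1 lower at 6 h, both below the shares of all genes. These were the deubiquitinase Uchl5 at 0.20 and Akirin2, which brings proteasomes into the nucleus, at -0.11. The proteasome deubiquitinase Usp14 (0.06 ± 0.09, adjusted p 0.569) and the inhibitor Psmf1 (0.05 ± 0.06, adjusted p 0.495) did not pass by limma. Of 7 ubiquitin shuttle receptors and genes of the p97 unfoldase 2 were higher and 1 lower, and the ubiquitin-activating enzyme Uba6 did not pass. Among 8 regulators of proteasome gene transcription, Stat3 was higher at 6 h (0.49 ± 0.06), and Foxo4 (-0.48 ± 0.07), Ngly1 (-0.15 ± 0.04) and Nfe2l2 (-0.12 ± 0.04) were lower. Nfe2l1, the factor that restores proteasome genes after proteasome inhibition, differed by 0.01 ± 0.03 at 6 h (adjusted p 0.807) and was lower at 24 h (-0.12 ± 0.04, adjusted p 0.0037).

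Cell markers and RNA quality also differed between the arms at some of the times. At 6 h the mean of 6 T cell markers ran from 9.25 to 9.94 in naive and 9.68 to 10.52 in sensitized mice, with 5 of 6 higher, and that of 8 macrophage markers from 10.64 to 11.22 and 10.82 to 11.90, with 5 of 8 higher. All 9 cell cycle genes were higher at 6 h (mean 7.84 to 9.28 in naive, 8.25 to 9.73 in sensitized mice) and at 24 h (8.37 to 8.61 and 9.70 to 10.62), 4 of 6 dendritic cell markers at both times, and 4 of 5 natural killer cell markers at 6 h. Lower at 6 h were 6 of 7 alveolar type I markers (mean 13.06 to 13.29 in naive, 12.72 to 13.19 in sensitized mice) and 5 of 7 endothelial markers (12.13 to 12.37 and 11.80 to 12.31). All 7 goblet cell markers were higher at 6 h, as were 4 of 6 plasma cell, 2 of 4 B cell, 2 of 4 eosinophil and 1 of 5 neutrophil markers, and 4 of 5 alveolar type II, 3 of 4 club cell and 4 of 6 fibroblast markers were lower. Over all genes 24.6% were higher and 33.2% lower at 6 h, and 22.8% were higher at 24 h. The neutrophil share was below that of all genes. Whether any marker list differed from all genes was not tested. The log2 difference of the 3′ and 5′ actin control probe sets, a measure of RNA quality, was lower in sensitized mice by an exact permutation test at 6 h (-0.18, adjusted p 0.0224) and 24 h (-0.127, adjusted p 0.0213), and higher at 168 h (0.289, adjusted p 0.032). By the same permutation test this measure did not pass at the other times, and at 0 h it differed by 0.00945 (adjusted p 0.841). The part of these cell and quality shifts in the proteasome differences was not tested.

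Without sensitized 6 h replicate 3 the 6 h calls of the 35 genes were as given, except that Psmc4 then passed. Without the 10 arrays with squamous or muscle signal 27 genes were higher and 1 lower at 6 h, and 22 and 0 at 24 h. Probe sets of the same gene mostly pointed one way at 6 h: of the 32 further probe sets of 18 genes, 26 had the sign of the one used, including all 11 with a mean signal of 10 or more.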

How the data were processed

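Whole-lung RNA of 61 naive and 62 sensitized mice was measured with 1 array per mouse, and each label gives its own animal number, so replicates are separate animals. The deposited values are log2 values made by the authors with RMA, per the submitters' processing notes. No version of RMA is stated there. RMA as usually run normalizes arrays by quantiles and compresses low signals. The deposited matrix has 25697 probe sets, of which 22478 had 1 gene symbol in the platform annotation, 259 several and 2950 none, and 10 were controls. Where a gene had several, the one of highest mean stood for it, which gave 13053 genes. Array medians were 9.32 to 9.44. No probe set in the matrix stayed below 7.03 on all arrays, so shares of all genes cover only genes that reached that signal. No arrays held identical values. Arrays give no depth, so precision rests on the number of mice.

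A model with 1 mean for each of the 16 groups was fitted with limma 3.58.1 in R 4.3.3 (lmFit and eBayes, 107 residual degrees of freedom; data read through data.table, version 1.17.8), with Benjamini-Hochberg adjustment within each contrast over all genes and a threshold of 0.05. Every adjusted p of a gene comes from limma, and differences are log2 sensitized minus naive with the model's standard error (SE). The fit was also run on simulated data in which each gene had 1 spread in all groups. That run therefore cannot check the shared spread. RNA quality was compared with an exact permutation test, two-sided, and its p adjusted for 8 times. Other steps used Python 3.11.15 (scipy 1.17.1, pandas 2.3.3, numpy 2.4.6, matplotlib 3.10.9).

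The genes, role groups, pathway lists and marker lists were chosen with earlier results of these data known. Values per group are given for up to 3 genes of each role with the largest absolute difference at 6 h and for genes whose call went against their role group, and other genes by counts or differences. Alternatives were array weights, a trended robust prior, the mean over a gene's probe sets, a filter on low signal, centred arrays, arrays with other tissue left out, fits of 1 time alone, and single mice left out.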

Additional observations from a re-analysis of the deposited data

Results flagged for a closer look

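In groups of 6 to 8 mice, 3 single values stood far from the rest of their group, out of 116 groups of named genes looked at; chance gives about 1 in 20. Psmb7 in sensitized 24 h replicate 1 was 11.98, the other 5 mice lying between 12.34 and 12.41. Psmc4 in sensitized 6 h replicate 3 was 12.55, with the others between 12.73 and 12.86. Psmg1 in naive 6 h replicate 6 was 10.28, with the others between 9.88 and 10.05.

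The sensitized minus naive difference changed since 0 h, by limma's test of that change, for 18 pairs of gene and time. At 6 h the log2 changes were all upward: Psma3 0.097, Psma6 0.16, Psma7 0.20, Psmb2 0.23, Psmb5 0.17, Psmb6 0.14, Psmd1 0.23, Psmd11 0.12, Psmd6 0.14, Psmd7 0.47, Psmd8 0.20, Psme3 0.41, Psmg1 0.43 and Psmg4 0.42. At 2 h Psmg4 changed by -0.27, at 96 h Psmc6 by -0.28 and Psmd13 by 0.45, and at 168 h Psmb2 by -0.31. These tests share the 0 h groups, so a 0 h group mean that lies high or low enters all of them.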

How the results depend on the processing

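The 28 and 22 higher genes at 6 h and 24 h ranged from 25 to 30 and from 17 to 23 over all settings other than leaving out mice. With array weights, counts of higher and lower genes were 3 lower at 0 h, 2 higher and 3 lower at 2 h, 5 lower at 48 h and 17 higher at 72 h. The changes since 0 h then passed for 7 genes at 2 h, 23 at 6 h, 11 at 24 h, 4 at 48 h, 4 at 96 h and 0 at 168 h. With the mean over probe sets, 0 genes were lower at 0, 2 and 24 h, 1 higher and 5 lower at 48 h, 7 higher at 72 h, 2 higher at 96 h and 1 lower at 168 h, and 1 gene passed for the change at 96 h. Differences that changed sign under it were Psma1 at 6 h (-0.0021), Psmd11 at 0, 24, 72 and 96 h (0.00076, 0.081, 0.049 and 0.00052), Psmd9 at 24 and 48 h (-0.056 and -0.034), Psme4 at 24, 72 and 96 h (-0.0305, -0.047 and -0.091) and Psmc4 at 48 h (-0.00535). Without the genes of lowest signal, 0 genes were lower at 6 h, and 2 and 1 passed for the change at 2 and 96 h. That filter removes Psma5 and Psmd13 themselves, at the 23.5th and 4.18th percentiles of mean signal. Neither could be counted under it, so the missing Psmd13 calls at 6 h and 96 h are no failed tests. With centred arrays, 1 was higher and 0 lower at 2 h, 0 higher and 11 lower at 48 h, 3 higher at 72 h and 9 lower at 96 h, and 0 and 4 passed for the change at 2 and 168 h. Without arrays with squamous or muscle signal 0 were lower at 0, 2 and 24 h. With only the groups of one time, 0 were lower at 0, 6, 24 and 48 h, 2 higher at 48 h and 2 lower at 96 h. Apart from that removal of Psma5 and Psmd13, the causes were not tested.

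With each mouse left out in turn, the higher genes numbered 6 to 10 at 0 h, 0 to 1 at 2 h, 26 to 29 at 6 h, 19 to 22 at 24 h, 1 to 6 at 48 h and 6 to 12 at 72 h, and the lower genes 0 to 1 at 0, 2, 6 and 24 h, 1 to 5 at 48 h and 2 at 72 h. This was not run at 96 and 168 h, nor at any time for the changes since 0 h or the F tests. No paired analysis was possible because the labels give no replicate numbers shared between groups. Low signal limits Psmd13, which lies near the bottom of the array's range.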
